A study of Mus musculus with 6 samples.

Results

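The urea cycle and ammonia entry genes were followed here in mouse liver: the enzymes Nags, Cps1, Otc, Ass1, Asl and Arg1, the liver glutaminase Gls2, and the mitochondrial carriers Slc25a15 and Slc25a13. They were taken by gene name from the deposited expression table, which held all 9 of them among 41838 genes. The rule is the gene name alone and uses no measured value, though it was set with earlier results of these data known. RNA sequencing covered 6 livers, 3 from Alkbh5flox/flox mice (called flox below), which carry the floxed Alkbh5 allele, and 3 from Alkbh5-HKO mice (called HKO), whose sample titles read Alkbh5-CKO. The sample labels give 9 weeks of normal chow and the series text an age of 9 weeks. Which promoter drove the deletion, and the feeding state at collection, were not stated in the labels. Per the labels the 3 replicates of a group are independent and biological. ALKBH5 is an enzyme that removes the N6-methyl mark from adenosines in RNA, and the comparison asks how liver transcripts differ when its gene is deleted.

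The urea cycle turns toxic ammonia into urea, and the liver is the main organ in which the whole cycle runs. Its first steps lie in the mitochondria of hepatocytes around the portal vein, where glutaminase releases ammonia from glutamine, CPS1 joins ammonia to bicarbonate once the NAGS product N-acetylglutamate activates it, and OTC passes the carbamoyl group to ornithine. Citrulline then leaves for the cytosol, where ASS1 adds nitrogen from aspartate, ASL splits off fumarate to leave arginine, and ARG1 cleaves arginine to urea and ornithine. The carrier encoded by Slc25a15 exchanges ornithine for citrulline across the inner mitochondrial membrane, and citrin, encoded by Slc25a13, exports the aspartate. Hepatocytes around the central vein catch ammonia that escapes, by making glutamine with glutamine synthetase (Glul).

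None of the 9 genes passed the test between HKO and flox livers. Otc and Gls2 were the members that lay higher in every HKO library than in every flox library, by 1.41-fold and 1.37-fold of the mean. The other 7 overlapped between groups, at 79.0% to 120% of the flox mean. Levels are FPKM, fragments per kilobase of the deposited gene length scaled to a library size. Differences are log2 of FPKM + 1, HKO minus flox, fitted by limma over the 10453 genes with a mean of at least 1 FPKM, with Benjamini-Hochberg (BH) adjustment over all of them and a threshold of 0.05. By that rule limma called 0 of 9 members, with 2 of 9 at an unadjusted p under 0.05, and voom called 0 as well. Over all tested genes 0.488% were called, 0.268% as higher and 0.22% as lower in HKO, and 17% had an unadjusted p under 0.05. Groups did not overlap in 2 of 9 members, both higher in HKO, against 25.4% of all tested genes in either direction and 12.8% higher.

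Alkbh5 itself was at 17.8, 16.8 and 14.8 FPKM in flox libraries 1 to 3 and at 0.508, 0.443 and 0.476 in HKO libraries 1 to 3, which matched the labels (log2 -3.56, SE 0.12, limma BH adjusted p = 8.14e-05). Depth was 14907384 to 17034754 reads per library. Along the leading principal component (44% of variance) HKO library 1 scored 38.6, apart from HKO libraries 2 and 3 at 15.7 and 4.51 and from the flox scores of -22.7 to -13.7. The Y-linked Eif2s3y was at 12.2 to 14.5 FPKM and Xist at no more than 0.0173 in all 6 libraries, so for the X-linked Otc the groups did not differ in these sex-linked transcripts.

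The sequences upstream of Otc and Slc25a15 are shown because these genes handle the same substrate, ornithine, and had the highest and the lowest fold change of the 9. Both are RefSeq sequences of GRCm38.p6, read 5′ to 3′ on the gene's strand, cut off before every annotated start, with CpG dinucleotides in capitals. The Otc stretch is chrX:10252055-10252229 on the plus strand and the Slc25a15 stretch is chr8:22398622-22398871 on the minus strand.
Otc: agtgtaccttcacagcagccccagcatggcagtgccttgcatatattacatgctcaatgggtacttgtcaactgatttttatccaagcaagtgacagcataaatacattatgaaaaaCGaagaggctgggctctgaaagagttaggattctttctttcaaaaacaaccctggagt
Slc25a15: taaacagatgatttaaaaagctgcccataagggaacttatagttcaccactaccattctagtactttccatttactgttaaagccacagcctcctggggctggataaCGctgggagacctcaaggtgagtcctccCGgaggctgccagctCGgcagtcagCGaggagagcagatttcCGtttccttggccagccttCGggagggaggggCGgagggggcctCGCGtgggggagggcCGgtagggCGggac
In the window of 300 bases around its start, 250 before and 50 after, Otc held 1 CpG at 44.3% GC, and 5.43% of the 32851 mouse promoter windows held fewer. The Slc25a15 window at this start held 15 CpG at 60.7% GC, and the median over all windows was 7 CpG and 52.7% GC. Of the 9 members, 5 had a promoter entry, and Ass1 (27 CpG), Slc25a13 (17) and Nags (14) were the others. Both strands of the 5 windows were searched for short motifs. The core of the cyclic AMP response element, TGACG, was in the Nags window after its start, and in 20.8% of all windows. It was also in the Slc25a13 window, at -13 from 6217173, the start used for that window. The CCAAT box was in the Slc25a13 window, at -22, and in 37.4% of all windows. The deposited Slc25a13 gene starts further upstream, at 6217234 on the minus strand, so both of its matches lie inside that gene. The other motifs had no match in the 5 windows: the TATA box TATAAA, in 13.6% of all windows, the C/EBP site TTGCNNAA, in 10.8%, the HNF4 site CAAAGTCCA, in 0.475%, and the glucocorticoid response core TGTTCT, in 19%. The Otc, Ass1 and Slc25a15 windows thus held none of the letters searched, which says only that these letters are not there.

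Levels of the 9 transcripts spanned a wide range, and because FPKM is per length they can be set beside each other. Ass1 was the most abundant, at 1023 to 1493 FPKM over the 6 libraries, followed by Arg1 at 671 to 972, and their ranges did not overlap. Asl (156 to 300) and Cps1 (111 to 253) came next and overlapped, with Asl above Cps1 in 5 of 6 libraries. Gls2 (94.8 to 156) lay above Otc (66.9 to 114) in 6 of 6 libraries. Otc lay above Slc25a15 (44.5 to 95.3) in 4 of 6, so the order of these neighbours was not settled beyond their spread. Slc25a13 (37.0 to 60.7) and Nags (24.3 to 30.2), the enzyme that makes the activator of CPS1, were the least abundant. The deposited length of Cps1 is 11148 bases, whereas its longest coding transcript in GENCODE M21 has 5555. With GENCODE lengths Cps1 moved to 332 FPKM on average, above Asl at 276, and Otc to 123, above Gls2 at 118. Fold changes between groups do not depend on the length used, apart from the effect of the added 1.

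Nags, on chromosome 11 at 102145513 to 102149528, was at 29.6, 25.7 and 27.1 FPKM in flox and 26.1, 30.2 and 24.3 in HKO. Both groups covered much the same range, with a log2 difference of -0.034 (SE 0.14, 95% interval -0.36 to 0.29). It was the steadiest flox value after Gls2, with an SD of 7.17% of the mean. Cps1, on chromosome 1 at 67122426 to 67231267, was at 179, 163 and 111 in flox and 253, 134 and 154 in HKO. HKO library 1 was the highest of the 6 and flox library 3 the lowest, and of the other 4 libraries both flox values lay above both HKO values, against the direction of the means. The mean was 151 ± 35.3 (SD, n = 3) in flox and 180 ± 63.8 in HKO, log2 0.23 (95% interval -0.43 to 0.89, limma BH adjusted p = 0.704). Without HKO library 1 the difference was -0.042, and without flox library 3 it was 0.025.

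Otc, on the X chromosome at 10252296 to 10321024, was at 66.9, 78.2 and 70.0 FPKM in flox libraries 1 to 3 and at 114, 92.7 and 97.1 in HKO libraries 1 to 3. The lowest HKO library stood above the highest flox library. The mean was 71.7 ± 5.83 (SD, n = 3) in flox and 101 ± 11.0 in HKO, a log2 difference of 0.49 (SE 0.14, 95% interval 0.15 to 0.82 for this gene alone). It did not pass over all genes (limma BH adjusted p = 0.162) and ranked 681 of 10453 by p. With a library left out in turn the difference was 0.40 to 0.55, so it did not rest on HKO library 1.

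**Figure D1:**
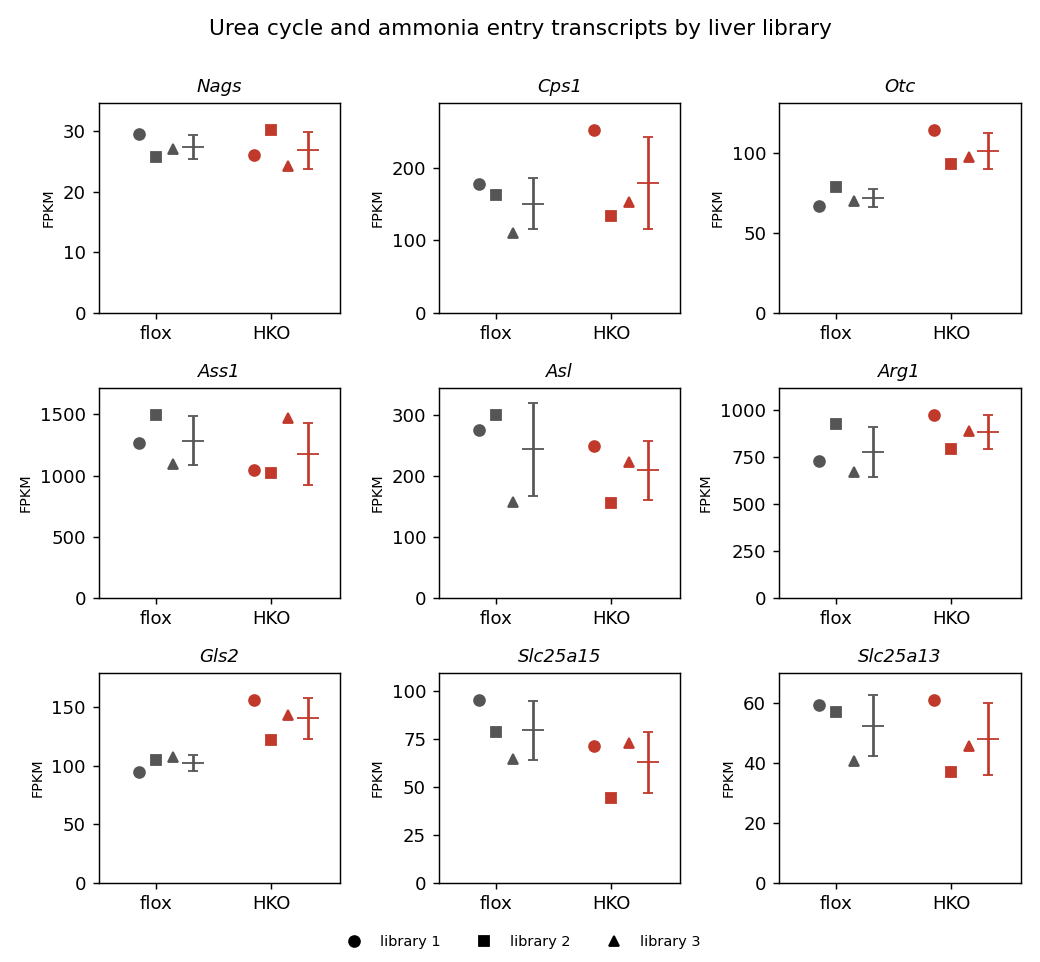
FPKM of the 9 members in each library, with 1 panel per gene and each axis starting at 0. Points are the 3 flox (grey) and 3 HKO (red) livers, and the bar beside them is the mean ± SD. Otc and Gls2 are the panels in which the groups do not overlap.

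The cytosolic enzymes overlapped between groups. Ass1, on chromosome 2 at 31470270 to 31520670, was at 1266, 1493 and 1097 in flox and 1042, 1023 and 1473 in HKO. HKO library 3 was near the highest flox library and the other two were below every flox library (log2 -0.13, 95% interval -0.61 to 0.34, limma BH adjusted p = 0.757). Asl, on chromosome 5 at 130011498 to 130024331, was at 276, 300 and 157 in flox and 250, 156 and 223 in HKO. Flox library 3 and HKO library 2 were both low, which left 245 ± 76.7 (SD, n = 3) against 210 ± 48.3 and a log2 difference of -0.19 (95% interval -0.87 to 0.49). Arg1, on chromosome 10 at 24915207 to 24927470, was at 730, 928 and 671 in flox and 972, 794 and 886 in HKO. Its log2 difference was 0.20 (95% interval -0.21 to 0.60, limma BH adjusted p = 0.592), with flox library 2 inside the HKO range.

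Both carriers had lower means in HKO livers, within the spread of the libraries. Slc25a15, on chromosome 8 at 22375550 to 22398621, was at 95.3, 79.0 and 64.8 in flox and 71.5, 44.5 and 72.9 in HKO. HKO library 2 was the lowest and flox library 3 lay below the other two HKO libraries. The mean was 79.7 ± 15.2 (SD, n = 3) against 63.0 ± 16.0, log2 -0.35 (SE 0.24, 95% interval -0.91 to 0.20, limma BH adjusted p = 0.481). Without HKO library 2 this was -0.12. Slc25a13, on chromosome 6 at 6041218 to 6217234, was at 59.2, 56.9 and 40.6 in flox and 60.7, 37.0 and 45.5 in HKO (log2 -0.14, 95% interval -0.67 to 0.39).

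Gls2, on chromosome 10 at 128194635 to 128210004, was at 94.8, 105 and 108 in flox and 156, 122 and 144 in HKO. Every HKO library lay above every flox library, with a mean of 102 ± 6.72 (SD, n = 3) in flox and 141 ± 16.8 in HKO. The log2 difference was 0.45 (SE 0.15, 95% interval 0.11 to 0.79, limma BH adjusted p = 0.192), which ranked 931 of 10453 by p. With each library left out it was 0.37 to 0.55. Gls2 overlaps Spryd4 on the opposite strand and the labels do not say whether reads were counted by strand, so reads of the pair may be mixed. Spryd4 was at 21.4, 21.0 and 17.0 in flox and 16.0, 16.7 and 18.3 in HKO, from 402 to 542 reads, against 3622 to 6199 reads for Gls2. Arg1 and Nags also overlap a noncoding gene on the other strand, Gm40616 with at most 155 reads and Gm11586 with at most 39.

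**Figure D2:**
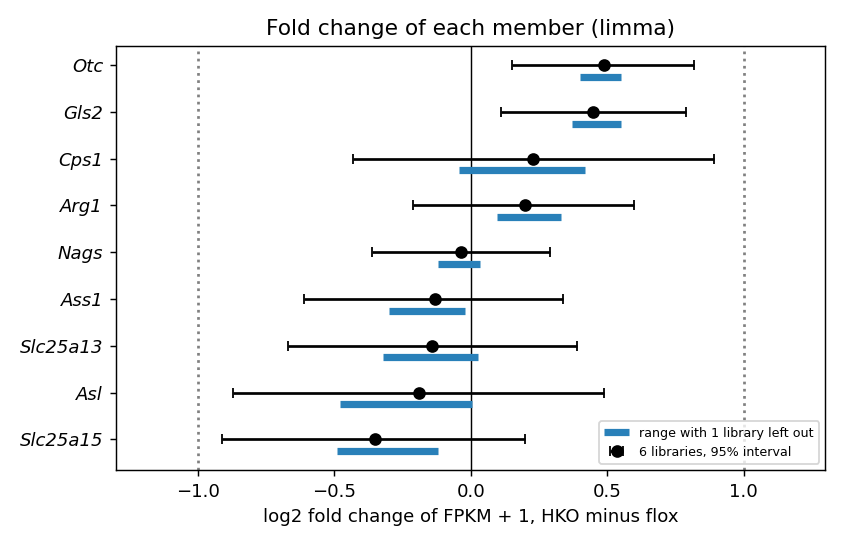
Log2 fold change of FPKM + 1, HKO minus flox, for each member, with its 95% interval from limma over 6 libraries (black) and the range when 1 library is left out (blue). Dotted lines mark 1 and -1. Otc at 0.49 and Gls2 at 0.45 are the highest, Slc25a15 at -0.35 is the lowest, and all 9 intervals lie between -0.91 and 0.89.

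Taking the 9 members as a list, 4 were above 0 and 5 below, with a median log2 difference of -0.034, beside -0.015 over all genes tested. The median absolute difference was 0.20, as it was over all genes tested. Summed FPKM was 2790 ± 441 (SD, n = 3) in flox and 2832 ± 357 in HKO. The members took 0.596% to 0.712% of the reads in flox and 0.634% to 0.834% in HKO. Within that sum Ass1 held 45.3%, 46.2% and 46.7% in flox and 35.4%, 42.0% and 47.2% in HKO. Otc held 2.39%, 2.42% and 2.98% in flox and 3.86%, 3.81% and 3.11% in HKO, and Gls2 3.39%, 3.25% and 4.59% against 5.28%, 5.03% and 4.62%. Both shares were higher in each HKO library than in each flox library, Gls2 by a small margin.

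The libraries differed in the same direction across most members. Flox library 3 was the lowest of its group in 6 of 9 members, namely Cps1, Ass1, Asl, Arg1 and both carriers. HKO library 2 was the lowest of its group in 8 of 9, all but Nags, and HKO library 1 the highest in 6 of 9. The spread between livers exceeded counting error throughout. At the lowest count the counting error was 0.606% for Ass1 and 3.64% for Nags, whereas the SD was 6.56% to 31.4% of the mean in flox and 10.1% to 35.4% in HKO.

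**Figure D3:**
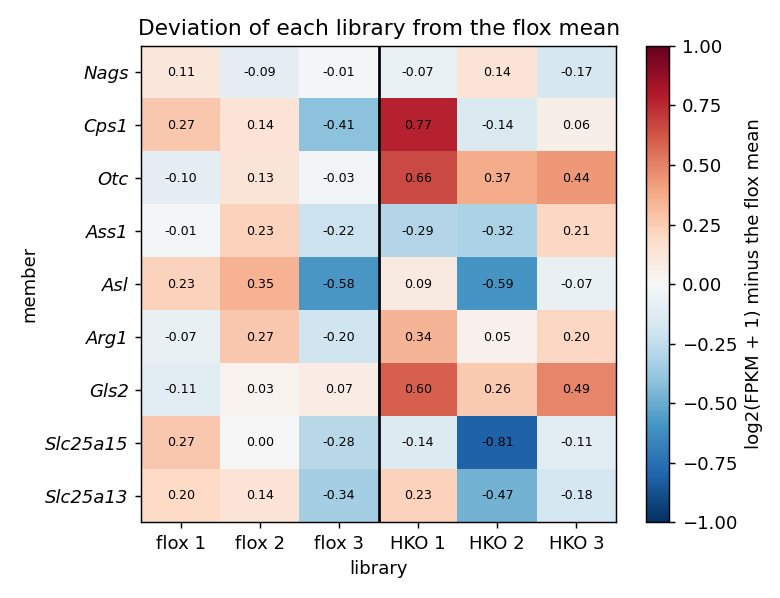
Log2(FPKM + 1) of each member in each library minus the mean of the 3 flox libraries, by colour and printed value. Otc and Gls2 are above 0 in all 3 HKO libraries, while flox 3 and HKO 2 share low values of Cps1, Asl, Slc25a15 and Slc25a13.

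Ratios of neighbouring steps within a library do not depend on how libraries are scaled. The ratio of Otc to Slc25a15, the enzyme that uses mitochondrial ornithine and the carrier that brings it in, was 0.702, 0.990 and 1.08 in flox and 1.59, 2.08 and 1.33 in HKO, with no overlap. Ass1 to Otc was 18.9, 19.1 and 15.7 in flox and 9.18, 11.0 and 15.2 in HKO, also without overlap. Gls2 to Glul, glutamine breakdown against glutamine synthesis, was 0.247, 0.215 and 0.331 against 0.655, 0.394 and 0.343. The third HKO value was just above the third flox value. Otc to Cps1 (0.495 ± 0.128 and 0.591 ± 0.127, SD, n = 3) and Ass1 to Asl (5.51 ± 1.29 and 5.77 ± 1.39) overlapped. Of 10 ratios computed, 4 did not overlap between groups, and 3 of these 4 hold Otc or Gls2, whose levels did not overlap either. No such share was computed over other gene pairs, so the count is a description. The ratios were not tested. A two-sided exact permutation test of 3 against 3 livers gives p of 0.1 at the least.

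**Figure D4:**
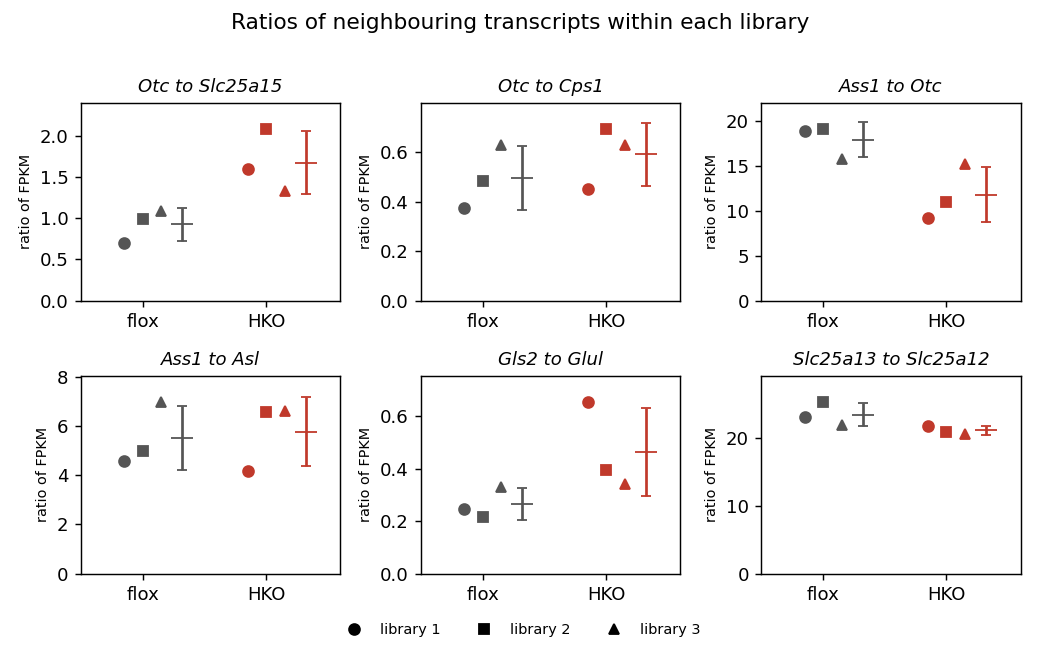
Ratio of FPKM of 2 transcripts within each library, for 6 pairs, with each axis starting at 0, points for libraries and bars for mean ± SD. Otc to Slc25a15 and Gls2 to Glul are higher and Ass1 to Otc lower in every HKO library than in every flox library. Slc25a13 to Slc25a12 is also lower, at 21.2 ± 0.69 against 23.5 ± 1.68, by a small margin. HKO library 1 is at 21.9 and flox library 3 at 22.0, and the counting error of Slc25a12 at its lowest count was 6.26%.

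Paralogs of 3 members were scarce in these livers. Arg2, the mitochondrial arginase, was listed at 0 in 3 of the 6 libraries and at no more than 0.172 FPKM. Slc25a2, another ornithine carrier, reached 0.214. Slc25a12, the aspartate carrier of other tissues, was at 1.76 to 2.77, where Slc25a13 was at 37.0 to 60.7.

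Transcripts that feed or drain the cycle did not pass either. Of 14 tested genes of ammonia, glutamine and glutamate handling 0 were called by limma or had an unadjusted p under 0.05, with 7 above 0 and 7 below (median log2 -0.033). Glul was at 384, 487 and 325 in flox and 238, 311 and 420 in HKO, log2 -0.32 (95% interval -0.90 to 0.26) and -0.12 without HKO library 1. Glutamate dehydrogenase Glud1 (log2 0.15), the mitochondrial carbonic anhydrase Car5a that supplies bicarbonate (0.23) and the aspartate transaminases Got1 (-0.53) and Got2 (0.16) all overlapped between groups. Without HKO library 2 the Got1 difference was -0.14, and without flox library 1 those of Glud1 and Car5a were 0.044 and 0.064. The glutamine transporter Slc38a3 was at 543, 576 and 412 in flox and 593, 649 and 695 in HKO, as the 1 tested gene of its list without overlap (log2 0.35, limma BH adjusted p = 0.353, and log2 0.20 without flox library 3). The glutamate carrier Slc25a22 was at 188, 120 and 118 in flox and 54.3, 99.4 and 122 in HKO, with a log2 difference of -0.66 that was -0.33 without HKO library 1. Of 10 tested genes of ornithine, arginine and proline use 0 were called (median log2 0.03). An unadjusted p under 0.05 was found for 3 of the 10, against 17% of all tested genes. Groups did not overlap in 3 of the 10, 2 higher and 1 lower, against 25.4% of all tested genes. Ornithine decarboxylase Odc1, which draws ornithine into polyamines, was at 36.6, 34.1 and 21.7 in flox and 17.6, 13.3 and 18.8 in HKO (log2 -0.84, SE 0.23, limma BH adjusted p = 0.143). Ornithine aminotransferase Oat was at 353, 312 and 227 against 223, 190 and 255 and overlapped. Aldh4a1, which finishes proline breakdown to glutamate, was higher in every HKO library (log2 0.47, limma BH adjusted p = 0.169). The arginine transporter Slc7a2 had a log2 difference of 0.071 (95% interval -0.87 to 1.02). Of 7 genes of the mitochondrial sirtuins and the fumarate and malate steps 0 were called by limma (median log2 0.083). An unadjusted p under 0.05 was found for 2 of the 7, against the same 17%. Groups did not overlap in 4 of the 7, 3 higher and 1 lower, against the same 25.4%. The 3 include Slc25a11, at 0.128, 0.205 and 0.237 in flox and 6.10, 0.352 and 0.276 in HKO. It passed the filter of a mean of at least 1 FPKM only through HKO library 1, so its place in this count carries little weight. Among the 7, Sirt5, a deacylase that acts on CPS1, had a log2 difference of 0.27 and Sirt3 -0.0075, and malate dehydrogenase Mdh1 0.47. Sirt5 and Mdh1 were higher in every HKO library than in every flox library.

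Transcription factors and the receptor known to act on urea cycle genes mostly had lower means in HKO livers. Of 16 tested, 14 were below 0 and 2 above (median log2 -0.21), where 5022 of all 10453 tested genes were above 0. Some of the 14 were near 0, such as Creb1 (-0.034) and Nr5a2 (-0.022). The genes above 0 were Trp53 (0.30), which overlapped, and Nr3c1. Those named below are mostly the larger differences. Limma called 0 of them, with 5 at an unadjusted p under 0.05, against 17% of all tested genes. Groups did not overlap in 4 lower and 1 higher, where 12.6% of all tested genes were lower without overlap. Hnf4a, a master factor of hepatocytes, was at 165, 164 and 151 in flox and 83.2, 116 and 133 in HKO (log2 -0.55, SE 0.19, limma BH adjusted p = 0.216). HKO library 1 was the lowest, and without it the log2 difference was -0.36. The glucagon receptor Gcgr, which signals fasting to hepatocytes, had a log2 difference of -0.49. Onecut1 was at 6.32, 5.80 and 20.3 in flox and 3.46, 1.17 and 3.91 in HKO, log2 -1.49 and -0.96 without flox library 3. Cebpb, an inducible C/EBP factor, was at 412, 366 and 165 against 110, 162 and 198 and overlapped through flox library 3, and Cebpa had a log2 difference of -0.22, or -0.11 without HKO library 1. The glucocorticoid receptor Nr3c1 was the gene higher without overlap (log2 0.27), with HKO library 1 at 12.6 and the other 5 libraries at 7.28 to 8.08. Without HKO library 1 its difference was 0.076.

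The cycle is concentrated in periportal hepatocytes, and 14 other periportal markers were examined with it. Limma called 0 of the 14, with 6 at an unadjusted p under 0.05, against 17% of all tested genes. By their means 9 were above 0 and 5 below (median log2 0.21), and 5 were higher and 1 lower without overlap. Among all tested genes 12.8% were higher and 12.6% lower without overlap. Aldh1b1 was at 11.3, 18.0 and 14.8 in flox and 24.4, 28.6 and 35.6 in HKO (log2 0.97, SE 0.21, limma BH adjusted p = 0.0911). Hal, which releases ammonia from histidine (log2 0.72), Uroc1 of the next step (0.45) and Etnppl (0.79, or 0.45 without flox library 1) were likewise higher in every HKO library. Sdsl was lower in every one (log2 -0.62, limma BH adjusted p = 0.137), while the serine dehydratase Sds itself had a log2 difference of 0.065. The genes named here are mostly from the 9 above 0. Summed FPKM of the 14 markers was 2793 to 4130 in flox and 2635 to 3213 in HKO, so the sum was not higher in HKO. Much of this sum came from 1 marker not reported here by name, so it does not speak for the others. Of 12 tested pericentral markers limma called 0, with 1 at an unadjusted p under 0.05, and 8 were below 0 (median log2 -0.20). Among them Cyp2e1 had a log2 difference of -0.41 and overlapped, and Cyp1a2 of 0.44 without overlap. In a whole liver sample fewer cells of a zone and less RNA per cell cannot be told apart.

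**Figure D5:**
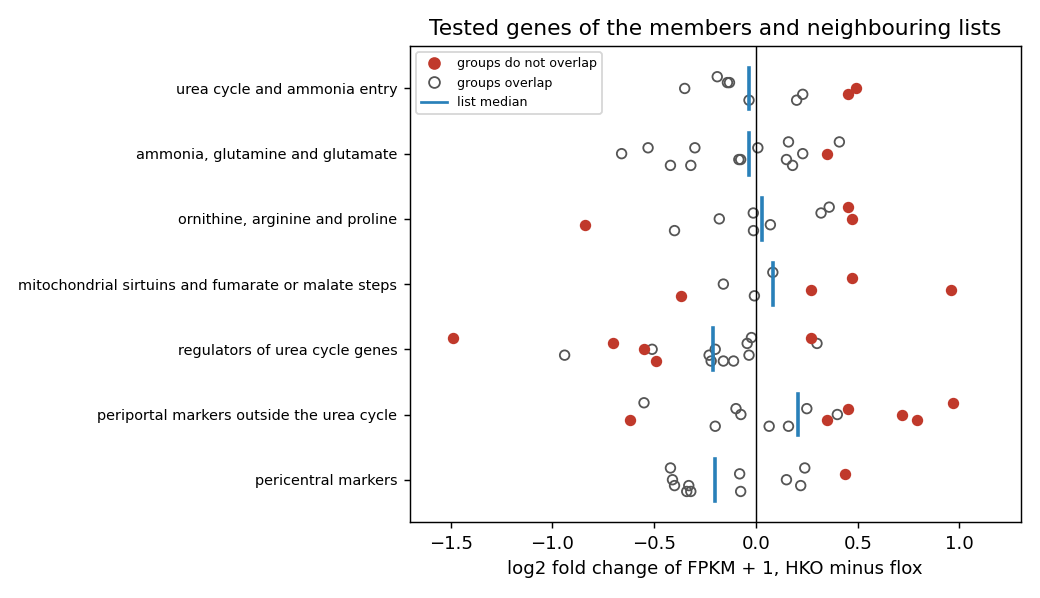
Log2 fold change of FPKM + 1, HKO minus flox, for each tested gene of the 9 members and of 6 neighbouring lists, with filled red points where the groups do not overlap and blue bars at the list medians. The medians run from -0.21 for regulators to 0.21 for periportal markers, beside -0.034 for the members. The red point at 0.96 is Slc25a11, which passed the filter only through HKO library 1.

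Hepatocyte transcripts dominated all libraries. The 6 hepatocyte markers summed to 53728 to 64674 FPKM in flox and 58867 to 61826 in HKO, against 88.0 to 169 for 6 Kupffer cell, 17.7 to 23.9 for 6 sinusoidal endothelial and 20.7 to 36.4 for 6 cholangiocyte markers. The similar hepatocyte sums hold opposite shifts. Alb was higher (log2 0.35) and Apoa1 lower (-0.78) in every HKO library, and the other hepatocyte markers overlapped. By their means 5 of the 6 were below 0 (median log2 -0.20), and limma called 0. Kidney and gut also express members of this set. Of 6 kidney tubule markers 4 were at 0 in all libraries. The 6 enterocyte markers summed to 142 to 210 in flox and 481 to 1527 in HKO, of which Alpi and Sis were at 0 and Vil1 at no more than 0.157, whereas Fabp2 was at 44.0 to 75.8. Apoa4, also on that list and also made by liver, was higher in every HKO library (log2 2.59, limma BH adjusted p = 0.0755). Myeloid cells can also express Arg1. The 6 neutrophil markers summed to 1.23 to 8.72 in flox and 3.36 to 3.54 in HKO and the 6 markers of recruited monocytes and macrophages to 3.92 to 5.47 and 4.84 to 9.28, none at 0 in all libraries, and their part in the Arg1 level was not tested. The 6 T and NK cell markers summed to 1.10 to 1.54 and 2.40 to 2.95, and the 6 B cell markers to 2.51 to 5.01 and 2.58 to 5.46. The 6 stellate cell markers summed to 59.3 to 96.2 and 86.8 to 97.8. Of the erythroid markers 5 of 5 tested were lower without overlap, against 12.6% of all tested genes. Limma called 1 of them, the globin Hbb-bt, whose reads may be shared with the similar Hbb-bs (log2 -1.95, BH adjusted p = 0.0373). The erythroid markers summed to 352 to 674 in flox and 105 to 209 in HKO.

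By a rule set with the lists, the 5 tested genes whose log2(FPKM + 1) was most like the members' mean over the 6 libraries were Adarb1, Map2k3, Pcyox1, 6030458C11Rik and Tdo2. As a description over 6 libraries that share their scaling, with no test, Pearson's r was 0.995 for Adarb1 and 0.981 for Tdo2, an enzyme of tryptophan breakdown. Tdo2 was at 755, 867 and 503 in flox and 910, 583 and 749 in HKO. It was low in flox library 3 and HKO library 2, as the members' mean was, though not every member.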

How the data were processed

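RNA was measured in 6 mouse livers. Messenger RNA was selected on poly-T beads and read from both ends, per the labels' protocols. The series text gives HISAT2 2.0.5 on GRCm38.p6 for alignment and featureCounts 1.5.0-p3 for counting, and CASAVA and DESeq2 1.20.0 appear in the submitters' processing notes. Annotation, strand setting and multimapping rules were not stated there. The deposited values are FPKM per gene and library, as made by the authors, beside a deposited gene length in bases.

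Multiplying FPKM by length gave whole multiples of 1 step per library for 100% of values (tolerance 0.001), which gave reads back. The library size behind the FPKM was 0.925 to 1.08 times the sum of reads, and median-of-ratios factors computed from the FPKM were 1.008 in every library, so the FPKM were already on that scale.

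Limma 3.58.1 (R 4.3.3, statmod 1.5.0; trend and robust) was run on log2(FPKM + 1) for 10453 genes with a mean of at least 1 FPKM, without covariates, with BH adjustment at 0.05. The added 1 understates changes of low genes. The fit was first tested on simulated reads. These had the same dispersion for every gene, and the changes put into them were all larger than those of the members. Changes as small as those of the members were thus not tried. Figures used Python 3.11.15 and matplotlib 3.10.9. Of the marker and neighbour symbols, Tf was matched as Trf. Members and lists were chosen with earlier results of these data known, so no p was adjusted over a list alone and no list was tested. Some genes of the lists are counted but not reported here by name. Named genes were Alkbh5, the 9 members, genes of the neighbour lists by role, and the 5 genes most like the members. Alternatives covered the pseudocount, filter, scaling, TPM, eBayes options, voom on the recovered reads, the replicate block and each library left out. Gene lengths from GENCODE M21 and voom with the authors' library size were added after the data were seen. Chi-square over genes was 28.3 to 63 per degree of freedom between libraries of a group, so none was a copy of another.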

Additional observations from a re-analysis of the deposited data

How the results depend on the processing

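Across the 18 alternatives no member gained a call, and of 162 member values 153 kept their sign. Some of these could not change sign. The filters, eBayes options and replicate block leave a gene's log2 difference as it was, and median-of-ratios scaling divides every library by the same factor. The counts of kept signs, here and for other genes, include these settings. Otc stayed at 0.40 to 0.57 (limma or voom, BH adjusted p of 0.103 to 0.419) and Gls2 at 0.37 to 0.55 (0.143 to 0.468). Nags, near 0, changed sign with quantile normalization (0.014), TPM (0.041) and scaling to the sum of reads by limma (0.038) or voom (0.040). Leaving out each library, members ranged from -0.042 to 0.42 for Cps1, -0.48 to 0.0051 for Asl, -0.12 to 0.033 for Nags and -0.32 to 0.028 for Slc25a13, so their sign rested on single libraries. Of 538 values of 30 genes of the neighbour lists 523 kept sign and side of the threshold. Slc25a12 was at -0.0025 with quantile normalization. Sirt3 was at 0.035 with it, 0.069 with TPM and 0.066 or 0.067 by scaling to summed reads. Without each library in turn Slc25a12 was at -0.10 to 0.12, Slc7a2 at -0.36 to 0.33, Sirt3 at -0.089 to 0.065 and Sds at -0.049 to 0.24, and list medians at -0.17 to 0.30 for ornithine, arginine and proline, 0.12 to 0.35 for periportal and -0.43 to -0.012 for pericentral genes. The cause of these changes was not tested.

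Over all genes, 28 higher and 23 lower were called. A pseudocount of 0.1 gave 18 higher, no filter gave 0 higher and 1 lower (with 2514 genes at an unadjusted p below 0.05) and voom scaled to summed reads gave 78 and 42. In fits with a library left out 0 to 29 higher and 1 to 38 lower were called, with at most 1 higher and 2 lower without flox 1, flox 2, HKO 1 or HKO 2. The replicate block gave 1 higher and 8 lower, and called 0 members. Deviations of same-numbered libraries correlated at 0.153, -0.145 and -0.0514, and 2 of 6 libraries correlated best with their own number. With 3 livers a group this cannot show whether the number marks a shared batch, which the labels do not say. Alkbh5 was called in all 18 alternatives. With voom on the authors' library size, added after the data were seen, 40 higher and 31 lower were called. With 3 livers a group, a p above the threshold does not show equal levels.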
